A study of Homo sapiens with 8 samples.

Results

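The 10 genes described here encode enzymes that build purine and pyrimidine nucleotides from small precursors: PPAT, GART, PFAS, PAICS, ADSL and ATIC on the route to inosine monophosphate (IMP), IMPDH1 and IMPDH2 on the branch to guanine nucleotides, and CAD and UMPS on the route to uridine monophosphate. They were taken by name, as every probe set whose only gene symbol in the platform annotation was one of the 10. This gave 30 probe sets of 44988 with a single symbol, and 10 genes of 18132. The samples were Hep3B and Huh7.5.1 cells, both established human hepatocellular carcinoma lines, kept for 48 h with the solvent DMSO or, for Huh7.5.1, with 10 μM CU27, a compound known here only by its code name. The groups compared were Hep3B with DMSO, Huh7.5.1 with DMSO and Huh7.5.1 with CU27, each with 2 arrays labelled as biological replicates. No label says that replicates came from separate cultures, so p-values measure the spread between these arrays only. The labels name no genetic change in any group.

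Cells can recycle free bases and nucleosides by salvage or make nucleotides anew. The purine ring is assembled step by step on phosphoribosyl pyrophosphate (PRPP) until IMP is reached, from which adenine and guanine nucleotides branch. The pyrimidine ring is made before the ribose phosphate is attached. Growing and dividing cells, liver cancer lines among them, are known for a high demand on both routes, and MYC is known to bind and activate several of these genes.

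Values are the deposited log2 signals, where a difference of 1 is a doubling. Each gene is represented by its brightest probe set on average. A gene was tested where its mean reached a floor of log2 6.11 in at least 1 group, and all 10 genes were tested, with a lowest group mean of 8.17. Between replicates, the median difference over the 10 genes was 0.08 in Hep3B DMSO, 0.12 in Huh7.5.1 DMSO and 0.14 in Huh7.5.1 CU27, and the largest was 0.31, at PAICS with CU27. Signals of different genes are not compared with each other, because probe sets differ in brightness.

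Array medians were 5.82 to 5.85 in Hep3B DMSO, 6.23 to 6.27 in Huh7.5.1 DMSO and 6.25 to 6.26 in Huh7.5.1 CU27. The 3′ minus 5′ difference of the ACTB control probe sets, a measure of RNA integrity, was 1.60 to 2.28 in Hep3B DMSO, 0.94 to 1.06 in Huh7.5.1 DMSO and 0.98 to 1.21 in Huh7.5.1 CU27. All 11 hepatocyte-lineage markers measured, ALB and AFP among them, were above the floor on every array. Of 5 leukocyte markers 2 or 3 reached the floor, with a summed linear signal of 401 to 492 in Hep3B, 3880 to 3970 in Huh7.5.1 DMSO and 2300 to 3360 in Huh7.5.1 CU27, and the defining marker PTPRC lay below the floor in every group. Of 6 fibroblast markers 1 or 2 reached it, with a summed signal of 221 to 264, and of 4 endothelial markers 0 to 2, with a summed signal of 154 to 243. At all 49395 probe sets the values labelled Hep3B CU27 followed from those of Hep3B DMSO by a straight line, within 1e-06, and these 2 arrays were left out.

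Promoter sequences of 3 loci are shown: 2 because a pair of genes shares them, and that of ATIC because it holds the motif CACGTG. PPAT and PAICS are neighbours on chromosome 4 and are read in opposite directions, as are GART and its neighbour SON on chromosome 21. The RefSeq table gives PAICS and GART 3 windows each. For each pair the annotated starts with the shortest gap were chosen, and the stretch between them is given. The PAICS gene as a whole is annotated from an earlier start, at 56410507, which lies within PPAT. Sequences are from RefSeq, build GRCh38.p14. The stretch between PPAT and PAICS is chr4:56435616-56435751, given on the minus strand, in which PPAT is read, with GGGCGG or its complement CCGCCC in capitals. From left to right the line begins beside the start of PAICS and ends beside that of PPAT. Its label names the pair, not the order.
PPAT to PAICS: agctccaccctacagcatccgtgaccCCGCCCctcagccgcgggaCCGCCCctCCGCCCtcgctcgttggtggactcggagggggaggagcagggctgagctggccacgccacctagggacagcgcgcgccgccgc
The stretch between GART and SON is chr21:33542893-33543037, given on the minus strand, in which GART is read, with CCAAT or its complement ATTGG in capitals. From left to right the line begins beside the start of SON and ends beside that of GART, and its label again names only the pair.
GART to SON: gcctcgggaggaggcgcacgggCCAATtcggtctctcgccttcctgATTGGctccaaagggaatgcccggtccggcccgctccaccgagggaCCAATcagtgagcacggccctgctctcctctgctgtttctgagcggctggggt
The 250 bases before the start of ATIC are chr2:215311809-215312058 on the plus strand, with the E-box CACGTG, the site that MYC binds with its partner MAX, in capitals.
ATIC upstream: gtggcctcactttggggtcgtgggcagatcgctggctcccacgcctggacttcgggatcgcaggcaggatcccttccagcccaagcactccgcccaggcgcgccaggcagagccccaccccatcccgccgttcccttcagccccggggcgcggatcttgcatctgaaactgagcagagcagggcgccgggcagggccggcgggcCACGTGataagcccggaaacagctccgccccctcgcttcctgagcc
The RefSeq table held promoter windows of 300 bases for 8 of the 10 genes, 12 windows in all. ADSL and IMPDH2 had none.

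Huh7.5.1 cells with CU27 had lower signals than those with DMSO for enzymes of the IMP route and for UMPS. Of the 10 genes, 5 fell, namely GART, PAICS, PFAS, UMPS and PPAT, and 0 rose (limma, adjusted p threshold 0.05). Over all 11383 genes tested, 12.1% fell and 12.6% rose. The difference was below 0 for 8 of the 10 genes, against 48.1% of all genes tested, and its median was -0.40 over the 10 and 0.02 over all. Without adjustment, 6 of the 10 were lower and 1 higher at a limma p threshold of 0.05. The matching share of all genes was not worked out, so these counts have no comparison. Both CU27 arrays lay below both DMSO arrays for 8 of the 10 genes, against 31% of all genes tested, and above them for 1, against 32.9%. In samples of whole cultures, fewer cells of a type and less RNA per cell cannot be told apart. The count of 5 became 3 without Huh7.5.1 DMSO replicate 1 and 2 without Huh7.5.1 DMSO replicate 2, and 4 without any of the other 4 arrays. It was also 3 with probe sets averaged, where 12.6% of all 9815 genes tested fell. It was 2 when those ending in _x_at or _s_at were dropped, which left 8 of the 10 genes, and 1113 of all genes fell. Fewer of all genes also fell without either Huh7.5.1 DMSO array, as given in the last section.

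**Figure D1:**
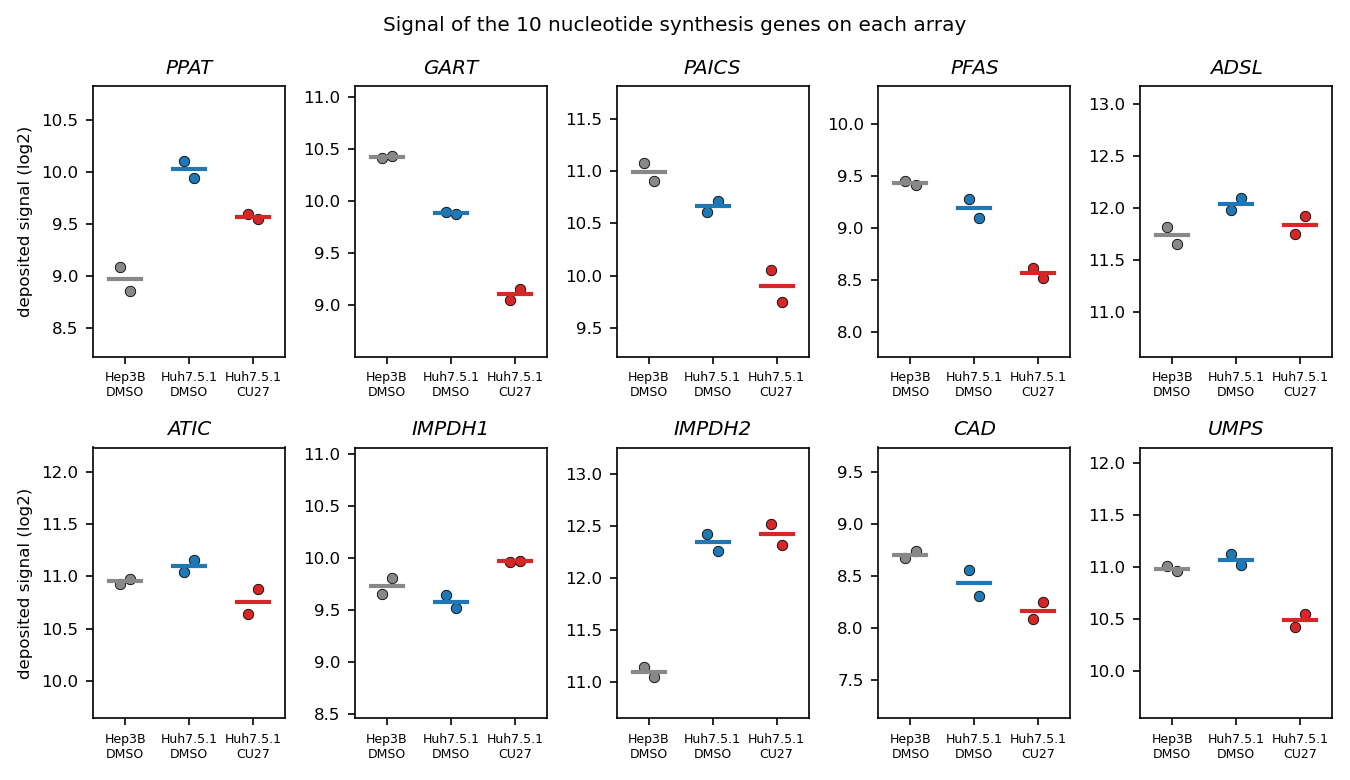
Deposited log2 signal (vertical axis, the same span of 2.6 units in each panel) of the 10 genes on each of the 6 arrays, by group; points are arrays and bars are group means of 2 arrays. GART, PAICS, PFAS and UMPS have both CU27 points well below both Huh7.5.1 DMSO points, while PPAT and IMPDH2 differ most between the lines.

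The enzyme of the committed step fell only slightly past the threshold. PPAT, the amidotransferase that starts purine synthesis from PRPP and glutamine, had signals of 10.11 and 9.95 with DMSO and 9.59 and 9.55 with CU27. The CU27 values were the lower ones, with a gap of more than the spread in either group. On the log2 scale the groups differed by -0.46 ± 0.14 (standard error, 2 arrays in each, limma adjusted p = 0.0433). Of 14 alternatives 10 ended the call (adjusted p of 0.0326 at the lowest and 0.218 at the highest), each omission of a single array included. The other PPAT probe set differed by -0.39 and did not pass (limma adjusted p = 0.172 over all probe sets). In that fit over all probe sets the chosen PPAT probe set had an adjusted p of 0.0541.

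GART, which carries out 3 of the following reactions in a single protein, fell under every setting tried. Its signals were 9.89 and 9.88 with DMSO and 9.05 and 9.15 with CU27. The groups stood far apart compared with their spread. The difference was -0.78 ± 0.12, a 1.72-fold lower level (limma adjusted p = 0.00306), and the call held in all 15 alternatives, with values from -0.83 to -0.73.

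GART is read by 5 probe sets, and 4 of them fell. These 4 had differences of -0.70 to -1.22. The lowest value belonged to 11764014_x_at, which was above the floor with DMSO, at 6.55 and 6.32, and below it with CU27, at 5.32 and 5.10. Its fold is at least 1.25. It was tested only because it passed the floor in Huh7.5.1 DMSO, so its difference could only be negative. The fifth, 11722930_x_at, had signals of 8.27 and 8.68 in DMSO and 8.09 and 8.33 with CU27, and these groups overlapped. Its difference was -0.26 ± 0.18 (limma adjusted p = 0.344). That probe set was designed on a RefSeq transcript of the short form of GART, which encodes only the glycinamide ribonucleotide synthetase part of the protein. Whether it differs from the other 4 was not tested.

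PFAS and PAICS, which act between the GART reactions and after them, also fell. PFAS, the amidotransferase that makes formylglycinamidine ribonucleotide, had signals of 9.28 and 9.10 in DMSO and 8.62 and 8.52 with CU27. Both CU27 values were lower than both DMSO values. The difference was -0.62 ± 0.14 (limma adjusted p = 0.0128). Of 15 alternatives 5 ended the call (adjusted p of 0.00891 at the lowest and 0.0996 at the highest). Among these were the omission of Huh7.5.1 DMSO replicate 1 (adjusted p = 0.0902), of DMSO replicate 2 (0.0522) and of CU27 replicate 2 (0.052). The others were averaging over probe sets, at -0.35 (0.0996), and dropping those ending in _x_at or _s_at (0.0844). Of the other PFAS probe sets, 11726709_a_at, near the floor, differed by -0.20 and 11726710_at by -0.47, neither past the test, and 11748992_a_at was too dim to test.

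PAICS, a bifunctional carboxylase and synthetase, had signals of 10.61 and 10.72 in DMSO and 10.05 and 9.74 with CU27. The CU27 arrays were both lower, and they differed more from each other than the DMSO arrays did. The difference was -0.77 ± 0.14, or 1.70-fold lower (limma adjusted p = 0.00575). Its call was lost in 1 of 14 alternatives, without Huh7.5.1 DMSO replicate 2 (adjusted p = 0.0546, range 0.00337 to 0.0546). The other PAICS probe set differed by -0.34 ± 0.13 and did not pass (limma adjusted p = 0.106).

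The last enzymes of the route to IMP had smaller differences that did not pass. ATIC, which closes the purine ring, had signals of 11.05 and 11.16 in DMSO and 10.64 and 10.88 with CU27. Both CU27 arrays were lower, but they differed from each other by more than the gap between the groups. The difference was -0.34 ± 0.12 (limma adjusted p = 0.0632, range 0.0369 to 0.286 over 15 alternatives), and it passed in 2 of them, with the replicate number as a block, at -0.34 (adjusted p = 0.0369), and without Huh7.5.1 CU27 replicate 2, at -0.46 (adjusted p = 0.0424). ADSL, which acts both before ATIC and on the branch to adenine nucleotides, had signals of 11.97 and 12.10 in DMSO and 11.74 and 11.93 with CU27. These groups lay close together, with a difference of -0.20 and a 95% interval of -0.44 to 0.04 (limma adjusted p = 0.195). The second ADSL probe set, 11761227_at, was below the floor on every array and was not tested.

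On the guanine branch neither gene passed the test. IMPDH2, the form of IMP dehydrogenase that is prominent in proliferating cells, had signals of 12.42 and 12.26 in DMSO and 12.52 and 12.32 with CU27. These values overlapped. The difference was 0.08, with a 95% interval of -0.16 to 0.31 (limma adjusted p = 0.650), and its 6 probe sets ran from 0.01 to 0.16.

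IMPDH1, the form found at low level in most tissues, had signals of 9.65 and 9.52 in DMSO and 9.96 and 9.97 with CU27. It was the gene of the 10 whose CU27 arrays both lay above the DMSO arrays. The difference was 0.39 ± 0.13 (limma adjusted p = 0.0572, range 0.0464 to 0.271 over 15 alternatives), and it passed only with the floor at the 75th percentile, where fewer genes were tested. All 4 IMPDH1 probe sets had positive differences, from 0.39 to 0.49, and 11738203_x_at passed in the fit over all probe sets (limma adjusted p = 0.0410). The genes encode closely related proteins, and whether probe sets of one also bind transcripts of the other was not tested.

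On the pyrimidine route, the closing enzyme fell and the opening enzyme did not pass. UMPS, which turns orotate into uridine monophosphate, had signals of 11.13 and 11.02 in DMSO and 10.43 and 10.55 with CU27. The gap between the groups was larger than the spread within either. The difference was -0.59 ± 0.11 (limma adjusted p = 0.00637), and the call held in all 15 alternatives. A second UMPS probe set, 11756373_a_at, fell by 0.70 (limma adjusted p = 0.0148). The third, 11734683_at, lay below the floor in both Huh7.5.1 groups and was tested only because it passed the floor in Hep3B.

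CAD, the protein that joins the carbamoyl phosphate synthetase, aspartate transcarbamylase and dihydroorotase activities, had signals of 8.55 and 8.31 in DMSO and 8.08 and 8.25 with CU27. The CU27 values were lower, but the gap to the DMSO values was smaller than the spread within either group. The difference was -0.26, with a 95% interval of -0.61 to 0.08 (limma adjusted p = 0.245). DHODH, the mitochondrial enzyme between CAD and UMPS, had means of 6.48 in DMSO and 6.09 with CU27, close to the floor, and a difference of -0.39 ± 0.18 that did not pass (limma adjusted p = 0.148).

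Over all probe sets of the 10 genes, 28 were tested, of which 8 fell and 1 rose, against 11.3% and 10.4% of all 27836 probe sets tested. The 8 were 4 of GART, 2 of UMPS and 1 each of PAICS and PFAS. Among them was 11764014_x_at of GART, which was tested only through Huh7.5.1 DMSO. A difference below 0 was found at 18 of the 28, or 64.3%, against 49.3% of all probe sets. Probe sets of a gene share its transcripts and are not independent.

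**Figure D2:**
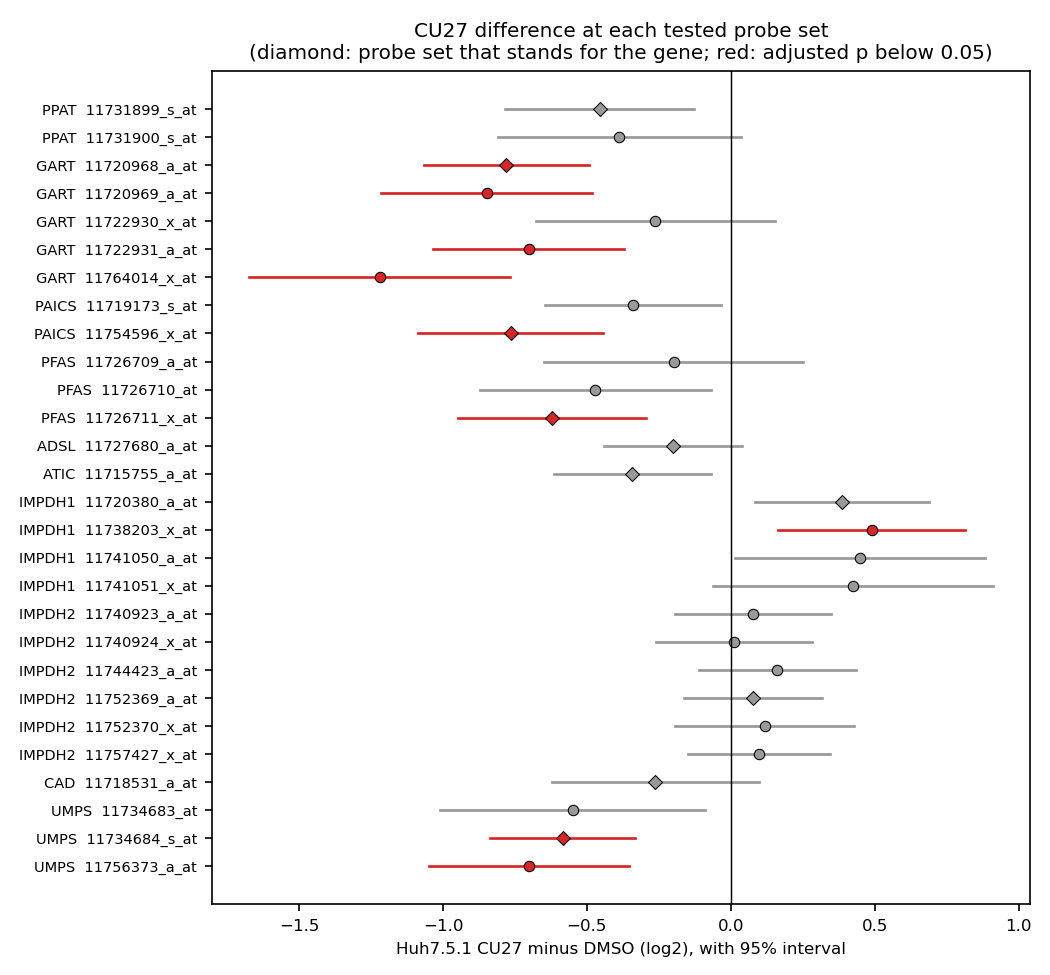
Difference between Huh7.5.1 CU27 and DMSO in log2 units (horizontal axis) for each of the 28 tested probe sets, with 95% intervals from limma; diamonds mark the probe set used for the gene and red marks an adjusted p below 0.05 over all probe sets. Every probe set of GART, PAICS, PFAS, UMPS and PPAT lies below 0, and every probe set of IMPDH1 and IMPDH2 above it.

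Enzymes that supply the building blocks of the purine ring fell in part. In the list of one-carbon and nitrogen donors, 5 of 13 tested genes fell and 0 rose, with a median of -0.23. Over all genes tested, 12.1% fell and 12.6% rose. MTHFD1L, the mitochondrial enzyme that releases formate for purine synthesis, fell by 1.17 ± 0.16 (limma adjusted p = 0.00179), and by 0.68 with probe sets averaged. SHMT2, the mitochondrial serine hydroxymethyltransferase, fell by 0.99 ± 0.13 (adjusted p = 0.00198), and SLC19A1, the reduced folate carrier, by 0.85 ± 0.14 (adjusted p = 0.00372). These calls held without each single array. SLC25A32, the mitochondrial folate carrier, was at -0.77 ± 0.21 (adjusted p = 0.0306), and 4 of 8 alternatives ended the call (adjusted p up to 0.212). These omitted Hep3B DMSO replicate 2, Hep3B DMSO replicate 3, Huh7.5.1 DMSO replicate 2 or CU27 replicate 1, the last at -0.50. The list's count of genes that fell was 3 to 4 with single arrays left out. In the list of PRPP and ribose supply, 1 of 10 fell and 1 rose, near the shares over all genes, with a median of -0.10. These were the pentose phosphate epimerase RPE at -0.54 ± 0.13 and the transketolase TKT at 0.49 ± 0.14. The RPE call ended without Huh7.5.1 DMSO replicate 1 (adjusted p = 0.0976), DMSO replicate 2 (0.112) or CU27 replicate 2 (0.068). The TKT call ended without either Hep3B array (0.0574 and 0.0582), Huh7.5.1 DMSO replicate 2 (0.202) or CU27 replicate 2 (0.133). PRPS1, which makes PRPP, was at -0.09 ± 0.16 and did not pass. TKT had identical values on both Hep3B arrays, which lowers its estimated spread.

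Later enzymes of nucleotide synthesis moved in both directions. Of 11 tested, 4 fell and 1 rose, against 12.1% and 12.6% of all genes tested, with a median of -0.21. CTPS1, which makes cytidine triphosphate from its uridine counterpart, fell by 0.92 ± 0.17 (limma adjusted p = 0.00657), and lost its call without DMSO replicate 2 (adjusted p = 0.0652, range 0.00552 to 0.0652). The guanylate kinase GUK1 rose by 0.75 ± 0.11 (adjusted p = 0.00281) and kept its call without each single array. NME4, a mitochondrial nucleoside diphosphate kinase, was at -0.64 ± 0.15 and AK3, a mitochondrial adenylate kinase, at -0.41 ± 0.10, and both lost their calls without CU27 replicate 2, at -0.57 and -0.34. NME4 also lost it without DMSO replicate 1, at -0.50, and AK3 without DMSO replicate 2, at -0.35. The list's count of genes that fell ran from 1 to 4 with single arrays left out. Of 7 deoxynucleotide genes, 1 fell and 0 rose, against the same shares of all genes, with a median of -0.25. It was RRM2, a subunit of ribonucleotide reductase, at -0.63 ± 0.16, and its call ended without DMSO replicate 1 (adjusted p = 0.0557), DMSO replicate 2 (0.133) or CU27 replicate 2 (0.0997), and with probe sets averaged, at -0.39 (0.121).

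Among the lists, salvage and breakdown genes held the largest single differences. Of 15 salvage genes, 3 rose and 2 fell, against 12.6% and 12.1% of all genes tested, with a median of 0.00. CDA, the cytidine deaminase, lay below the floor in DMSO and was at least 3.06-fold higher with CU27 (limma adjusted p = 0.00419), also without each single array. CDA was tested only because the CU27 group passed the floor, so its difference could only be positive. The uridine phosphorylase UPP1 was at 1.09 ± 0.24 and the uridine kinase UCK1 at 0.67 ± 0.16. Both calls ended when either Huh7.5.1 DMSO array or CU27 replicate 2 was omitted, with adjusted p up to 0.0697 for UPP1 and 0.122 for UCK1. Without CU27 replicate 2 UPP1 was at 0.70, and with probe sets averaged UPP1 was at 0.63 and UCK1 at 0.44, both past the test. The adenine phosphoribosyltransferase APRT was at -0.50 ± 0.10 and lost its call without DMSO replicate 2, at -0.46 (adjusted p = 0.0888). Counts for the salvage list were 1 to 3 risen and 0 to 2 fallen with single arrays left out. Of 10 breakdown genes, 5 fell and 1 rose, against 12.1% and 12.6% of all genes tested, with a median of -0.56. NT5E, the surface nucleotidase CD73, fell by 1.67 ± 0.23 (adjusted p = 0.00198) and kept its call without each single array. DPYD, which degrades uracil and thymine, was at -1.03 ± 0.27 and the nucleotidase NT5C3B at -0.56 ± 0.13, while AMPD3, an AMP deaminase below the floor in DMSO, was at least 1.29-fold higher with CU27. AMPD3 was above the floor only on CU27 replicate 2, at 7.15, and did not reach the test without CU27 replicate 2 or with probe sets averaged. Like CDA, it was tested only through the CU27 group, so its difference could only be positive. These 3 calls ended without DMSO replicate 1 (adjusted p = 0.0879, 0.0921 and 0.0828) or DMSO replicate 2 (0.126, 0.0914 and 0.0865), and those of DPYD and NT5C3B also without CU27 replicate 2, at -0.61 (0.13) and -0.53 (0.0589). With single arrays left out, 1 to 4 genes of the breakdown list fell. NT5C3B had identical values on both Hep3B arrays. Of 4 nucleoside transporters tested, 0 passed, against the same shares of all genes.

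**Figure D3:**
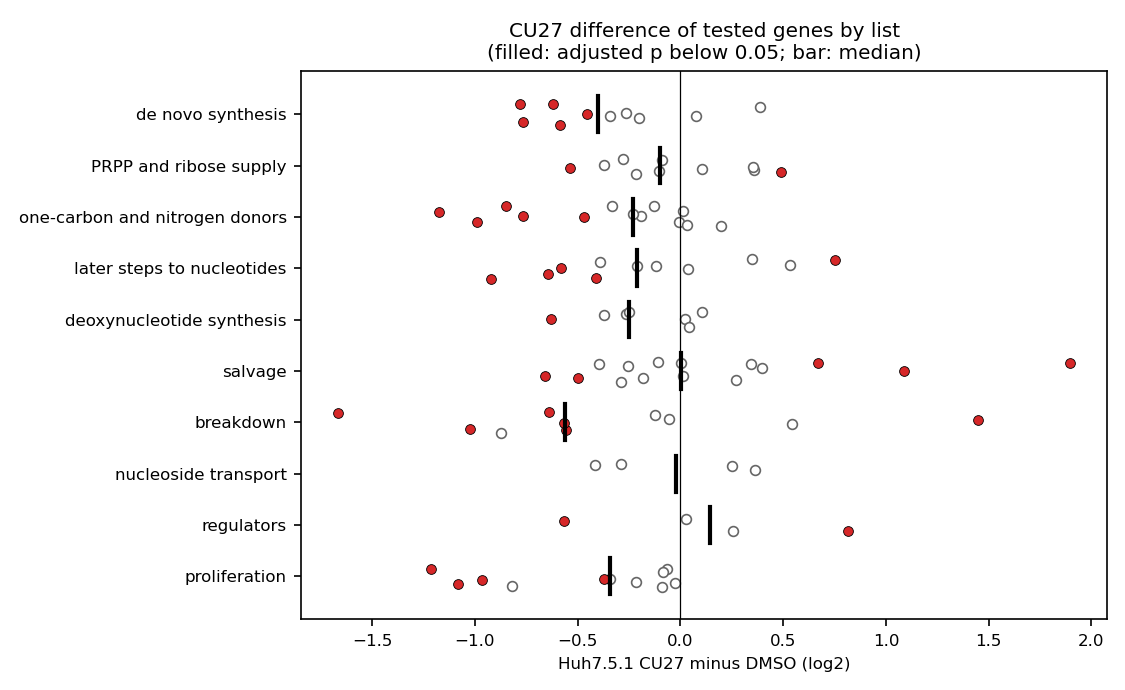
Difference between Huh7.5.1 CU27 and DMSO on the log2 scale (horizontal axis) for each tested gene of the 10 de novo synthesis genes and 9 further lists; filled points passed the test over all genes and bars are list medians. The de novo genes have a median of -0.40, and salvage genes scatter on both sides of 0.

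Among 4 regulators of nucleotide genes, MYC fell and E2F1 rose. MYC fell by 0.56 ± 0.13 (limma adjusted p = 0.0138) and the cell cycle factor E2F1 rose by 0.81 ± 0.16 (adjusted p = 0.00818). Both calls were lost without DMSO replicate 2, at -0.47 and 0.65 (adjusted p = 0.116 and 0.0820). MAX, the partner of MYC, was at 0.25 ± 0.15 and ATF4, a factor that drives serine and one-carbon enzymes, at 0.03 ± 0.09, and neither passed. Of 11 proliferation genes, 4 fell and 0 rose, against 12.1% and 12.6% of all genes tested, with a median of -0.35. The part of proliferation in the differences of the 10 genes was not tested. The mitotic genes CCNB1, CCNB2 and AURKA fell by 1.22 ± 0.15, 1.08 ± 0.12 and 0.97 ± 0.12, also without each single array. MCM3, a subunit of the replicative helicase, was at -0.37 and lost its call in 5 of 8 alternatives. MKI67 was at -0.07 ± 0.16 and PCNA at -0.22 ± 0.13, neither past the test. Of the 11 hepatocyte-lineage markers, 5 fell with CU27 and 0 rose, against the same shares of all genes, with a median of -0.43. Of 3 leukocyte markers tested, CD68 rose by 2.25, while LYZ at -0.84 and NKG7 at -0.21 did not pass, and the summed leukocyte signal was lower with CU27, as given above. The part of these in the differences of the 10 genes was not tested.

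Motif letters near the starts were searched on both strands in the windows of 300 bases. CACGTG was found in windows of 3 of the 8 genes, PPAT, PAICS and ATIC, or 3 of 12 windows, against 7.26% of all 35116 windows of that length. The PPAT and PAICS windows overlap and share their match, which lies outside the stretch printed above. GGGCGG was in 8 of the 12 windows, of 7 of the 8 genes, against 45% of all windows. CCAAT was in 4 of the 12, of GART and CAD, or 2 of the 8 genes, against 34.6%. The GART windows that start at 33542840 and 33542843 overlap almost fully, so the 12 windows are not independent. For E2F factors, TTTGGCGC was in 1 GART window, against 0.652% of all windows, and TTTCGCGC in 0, against 0.515%. TGATGNAA, a form of the site of ATF4, was in 0 of the 12 windows, against 3.62%.

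Between the lines in DMSO, IMPDH2 and PPAT were higher in Huh7.5.1 on every scaling tried, and GART was higher in Hep3B by the probe set used. On the deposited scale, 3 of the 10 genes were higher in Huh7.5.1 and 1 was lower, against 41% and 22.9% of all genes tested. Without overlap between arrays, 5 lay above and 5 below Hep3B, against 52.9% and 31.9% of all genes. Of the 28 probe sets, 12 were higher and 3 lower, against 44.8% and 19.4%. After each array's median was subtracted, 2 of the 10 genes were higher and 6 lower, against 23.2% and 40.8% of all genes. The column medians differ by 0.42 between the lines, and no source used here states how the arrays were scaled, so differences of that size have no settled direction. The ACTB 3′ minus 5′ difference was also larger in Hep3B, and the leukocyte marker sum was larger in Huh7.5.1, where LYZ had a mean signal of 11.84 against 7.72 in Hep3B. CD68 of the same list went the other way, at -0.30 as deposited and -0.72 relative to the shift. The part of either in these differences was not tested.

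IMPDH2 had signals of 11.15 and 11.05 in Hep3B, against the Huh7.5.1 values of 12.26 to 12.52 over both treatments. The Hep3B arrays were the low ones by a wide gap. The difference between lines was 1.25 ± 0.10, a 2.37-fold higher level in Huh7.5.1 (limma adjusted p = 1.28e-05), and 0.83 relative to the shift (adjusted p = 6.94e-05). Its call held in all 14 alternatives. All 6 IMPDH2 probe sets were higher in Huh7.5.1, by 1.25 to 1.76 as deposited and 0.83 to 1.34 relative to the shift.

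PPAT had signals of 9.09 and 8.86 in Hep3B, below those of Huh7.5.1 with CU27 and with DMSO. The difference between lines was 1.05 ± 0.14, or 2.07-fold (limma adjusted p = 2e-04), and 0.63 relative to the shift (adjusted p = 0.00274), and it passed in all 13 alternatives. The second PPAT probe set differed by only 0.33 as deposited and by -0.09 relative to the shift, and passed on neither scale.

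GART was in the opposite order, with signals of 10.42 and 10.43 in Hep3B, above those of Huh7.5.1 with DMSO and, in turn, with CU27. The difference between lines was -0.54 ± 0.12 (limma adjusted p = 0.00394) and -0.96 relative to the shift (adjusted p = 0.000116). Its other probe sets did not all give the same size or sign. The short-form probe set 11722930_x_at was at -0.65 as deposited and -1.07 relative to the shift, and passed on both scales. The probe sets 11720969_a_at and 11722931_a_at were at 0.07 and -0.10 as deposited, neither past the test, and at -0.35 and -0.51 relative to the shift, where the second passed (limma adjusted p = 0.0154). The fifth, 11764014_x_at, was below the floor in Hep3B, at 4.33 and 4.22, and at least 1.25-fold higher in Huh7.5.1. With the 5 averaged, this dim one included, the difference was 0.19 (adjusted p = 0.206).

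The other genes changed their call or sign with the scaling. ATIC, at 0.15 and -0.27, passed on neither scale. PAICS was at -0.33 ± 0.14 as deposited (limma adjusted p = 0.0626), with Hep3B signals of 11.08 and 10.91, and at -0.75 relative to the shift (adjusted p = 0.000999). PFAS went from -0.24 to -0.66, CAD from -0.27 to -0.69 and IMPDH1 from -0.15 to -0.57, and all 3 passed only relative to the shift. ADSL was at 0.30 ± 0.10 as deposited (adjusted p = 0.0316) and at -0.12 relative to the shift (adjusted p = 0.363). UMPS went from 0.09 to -0.33, with adjusted p of 0.501 and 0.0254. Probe sets of IMPDH1 disagreed as well, from -0.15 to 1.23 as deposited and from -0.57 to 0.81 relative to the shift. The highest, 11741051_x_at, passed on both scales (limma adjusted p = 0.00108 and 0.00781). The PFAS probe set 11726710_at was at 0.46 as deposited (limma adjusted p = 0.0462) and at 0.04 relative to the shift (0.846). The UMPS probe set 11734683_at, tested only through Hep3B, was below the floor in Huh7.5.1 and at least 1.54-fold higher in Hep3B as deposited.

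**Figure D4:**
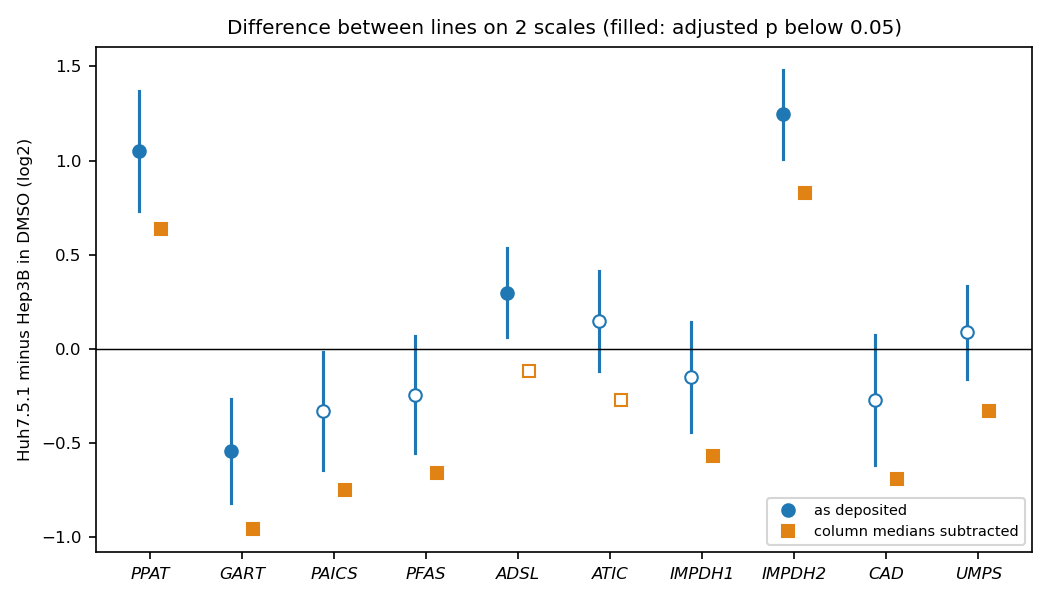
Difference between Huh7.5.1 and Hep3B in DMSO on the log2 scale (vertical axis) for the 10 genes, as deposited (circles, with 95% intervals from limma) and after subtraction of each array's median (squares); filled symbols passed the test. PPAT and IMPDH2 stay above 0 and GART below 0 on both scales (GART turns to 0.19 as deposited with its probe sets averaged), and ADSL, ATIC and UMPS change sign.

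Genes around the 10 differed between the lines with larger values in several cases. PRPS2, which makes PRPP, was below the floor in Huh7.5.1 and at least 4.08-fold higher in Hep3B, and PGD of the pentose phosphate pathway differed by 1.59, or 1.18 relative to the shift. SHMT1, the cytosolic serine hydroxymethyltransferase, was at -1.86 as deposited, -2.28 relative to the shift and -0.88 with probe sets averaged. ASNS, which uses glutamine to make asparagine, was at 1.69 and, relative to the shift, 1.27. GMPS, which follows IMPDH on the guanine branch, was at -1.70 and -2.12 on these scales, and the pyrimidine kinase CMPK1 at 1.29 and 0.87. Among salvage genes, APRT was at 1.55 and 1.14 and the deoxycytidine kinase DCK at -1.50 and -1.92. Among breakdown genes, DPYD and the guanine deaminase GDA lay below the floor in Hep3B and were at least 3.93-fold and at least 3.11-fold higher in Huh7.5.1 as deposited. All of these kept their sign and passed the test (limma adjusted p threshold 0.05) relative to the shift and with probe sets averaged. The deoxynucleotide genes DCTD, at -1.41 and -1.83, and TYMS, at 0.73 and 0.31, did so too. So did CCNB1, at -1.38 and -1.80, and CDK1, at 1.06 and 0.64. The transporter SLC29A4, at -2.01 and -2.43, also did, with -0.51 when probe sets were averaged. SLC29A1 passed at -0.50 and -0.92 but was at 0.14 with probe sets averaged. E2F1, at 0.70 and 0.28, and ATF4, at 0.31 and -0.11, passed as deposited but not relative to the shift. Of the breakdown list 7 of 10 were higher in Huh7.5.1 and 0 lower as deposited, against 41% and 22.9% of all genes tested. Relative to the shift, 5 were higher and 2 lower, against 23.2% and 40.8%.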

How the data were processed

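The data were 8 columns of a value table of 49395 probe sets, deposited by the authors, whose signals were taken as log2 values from their range of values. The submitters' processing notes name MAS5 without a version, and the array scaling is not stated. RNA was biotin-labelled with a 3′ in vitro transcription kit, per the labels' protocols. Of the columns, 6 were used. The 102 array controls were left out. The annotation gave 44988 probe sets 1 symbol, 1832 several and 2473 none, and 44961 matched the gene table with 0 symbols changed. The floor was the 50th percentile of all values. Differences between groups were fitted in R 4.3.3 with limma 3.58.1 (lmFit, contrasts, eBayes with trend, 3 residual and 5.87 prior degrees of freedom), two-sided, with Benjamini-Hochberg adjustment over the 11383 genes, or 27836 probe sets, tested, and a threshold of 0.05. Errors are limma standard errors. An exact permutation test of 2 against 2 arrays cannot go below 0.333 and was not used. The number of arrays limits the precision. The procedure was tested on simulated data, where it called 65% of 2-fold and 97% of 4-fold changes. Smaller differences can therefore be missed. Members and lists were chosen with earlier results of these data known. From each list, up to 4 genes past the test with CU27 and 2 between lines were named, by smallest adjusted p, plus DHODH and all regulators; PRPS1, MKI67, PCNA, ALB, AFP, CD68, LYZ and NKG7 were named after their values were seen.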

Additional observations from a re-analysis of the deposited data

How the results depend on the processing

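The falls of GART and UMPS with CU27 held in all alternatives run, while the number of the 10 genes that fell, 5, depended on probe sets and on single Huh7.5.1 DMSO arrays. It was 3 with the mean of all probe sets, 2 without _x_at and _s_at probe sets (where 2 of the 10 genes have none left) and 2 to 4 with single arrays left out. The number that rose, 0, was 1 with the floor at the 75th percentile. The labels link same-numbered Huh7.5.1 replicates by the number alone. Their deviations had a correlation of 0.263 over probe sets, and whether they share a batch was not tested. The main fit used no block. With a replicate block 6 of the genes fell, ATIC being added (limma adjusted p = 0.0369). Between lines the groups share a single replicate number, so no block was used. The number of genes higher in Hep3B, 1, was 6 with column medians subtracted, 5 with quantile normalization, 2 with DMSO arrays only and 1 to 2 with single arrays left out. The number of probe sets higher with CU27, 1, was 0 without a filter on dim probe sets, and that lower in Huh7.5.1 than in Hep3B, 3, was 13 with column medians subtracted. The shares of all probe sets in these settings were not worked out, so these counts have no comparison. Over all genes, the share lower in Huh7.5.1 went from 22.9% to 40.8% with column medians subtracted. The signs listed next are of results past the test in the main fit or the alternative. Between lines they turned for ADSL (-0.12, also its probe set), UMPS (-0.33, also its probe set) and ATF4 (-0.11) with column medians subtracted. They also turned for GART (0.19), IMPDH1 (0.43), UMPS (-0.36) and SLC29A1 (0.14) with the mean of all probe sets, and for PFAS (0.46) without _x_at and _s_at probe sets. ATIC, past the test on neither scale, turned to -0.27 with column medians subtracted. The cause was not tested. Over all genes, 1380 fell and 1429 rose with CU27, against 430 and 457 without Huh7.5.1 DMSO replicate 2, 835 and 803 without DMSO replicate 1, and 849 and 673 without CU27 replicate 2. Between lines, 4671 were higher and 2612 lower in Huh7.5.1, against 2648 and 4659 with column medians subtracted, 4006 lower with quantile normalization, and 7517 and 3051 higher with no filter and with the floor at the 75th percentile. Leaving single arrays out for the lists was added after the data were seen.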
